A study of Drosophila melanogaster with 2 samples.

Results

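Small nucleolar RNA (snoRNA) genes were taken as every gene of the biotype snoRNA on the 6 main chromosome arms of the Ensembl BDGP6 annotation. This gave 269 genes of 18164 annotated genes other than transposable elements. By name, 116 were of the box C/D class (Me, Or-CD, or U with a number) and 120 of the box H/ACA class (Psi or Or-aca). The other 33 had names outside these patterns, CD-24 among them, and were left unclassed. Among the 269 were 16 genes named scaRNA, for the related RNAs of the Cajal body. The position of CG4854-eGFP peaks at their starts and at the promoters of the genes that contain them was scored in 2 biological replicates. The samples were whole Drosophila melanogaster embryos of mixed sex, 0 to 24 h old, from a transgenic line that stably expresses CG4854 with GFP at its C terminus. CG4854 encodes a zinc finger protein, and the fusion was recovered by chromatin immunoprecipitation with an antibody against GFP, followed by sequencing (ChIP-seq). Replicates 2 and 3 belong to a single group, which leaves neither conditions to compare nor a test over samples. The labels do not give the promoter that drives the transgene, and a whole embryo mixes many cell types, so binding cannot be assigned to one of them.

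snoRNAs are short nuclear RNAs that guide chemical modification of ribosomal RNA. Box C/D snoRNAs direct methylation of the ribose and assemble with fibrillarin, while box H/ACA snoRNAs direct conversion of uridine to pseudouridine and assemble with a pseudouridine synthase, Nop60B in flies. Most animal snoRNAs are not transcribed from a promoter of their own: they are cut out of the introns of a host gene, often one for a ribosomal protein or a translation factor, and some hosts, such as the fly Uhg genes, have no apparent product other than their snoRNAs. The promoter of the host is then the start site that matters for the snoRNA.

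The class names were set against the gene sequences, of which 4 are shown because their starts lay near a peak that is described below. Capitals mark the letters searched for: TGATGA (box C) within the first 20 bases and CTGA (box D) within the last 20 for box C/D genes, and ACA within the last 6 bases for box H/ACA genes. All are dm6 sequence in the sense of the snoRNA, from RefSeq's Release 6 assembly: Me18S-A1576 at chr2L:9894795-9894907 on the minus strand, Me28S-A774b at chr3L:13023580-13023652, Psi18S-920 at chr3L:11822984-11823124 and Psi18S-1275 at chr3R:9778398-9778537, these 3 on the plus strand.
snoRNA:Me18S-A1576: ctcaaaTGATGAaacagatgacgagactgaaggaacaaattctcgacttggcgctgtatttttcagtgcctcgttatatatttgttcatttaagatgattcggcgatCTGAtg
snoRNA:Me28S-A774b: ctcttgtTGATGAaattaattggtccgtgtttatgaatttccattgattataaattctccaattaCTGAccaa
snoRNA:Psi18S-920: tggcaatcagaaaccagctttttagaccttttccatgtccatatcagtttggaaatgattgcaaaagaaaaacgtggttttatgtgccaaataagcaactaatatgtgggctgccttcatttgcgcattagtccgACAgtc
snoRNA:Psi18S-1275: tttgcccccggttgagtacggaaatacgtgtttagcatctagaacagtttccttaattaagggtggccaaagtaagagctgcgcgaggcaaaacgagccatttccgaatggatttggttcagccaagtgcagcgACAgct

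Both C/D letters stood in 79 of 116 box C/D genes (68.1%) and in 0 of 120 box H/ACA genes. The ACA letters stood in 112 of 120 box H/ACA genes (93.3%) and in 7 of 116 box C/D genes (6.03%). The letters therefore separated the classes in the direction of their names, and the box C/D genes without an exact match keep their class by name only. The median length was 80 bp for box C/D genes and 140 bp for box H/ACA genes.

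Of the 269 genes, 247 lay wholly inside another gene on the same strand, the host, and 22 did not. The 247 were held by 90 hosts, of which 83 were protein-coding and 7 were non-coding (ncRNA) genes. Cytosolic ribosomal protein genes made up 29 of the coding hosts and held 76 snoRNA genes, the other 54 coding hosts held 126, and the ncRNA hosts held 45. Of the 247, 228 lay in an intron, clear of every annotated exon of the host. An exon of any host transcript contained 16, which may be intronic in another transcript, and 3 crossed an exon edge. The median distance from a snoRNA start to the nearest annotated transcript start of its host was 1511 bp, with a range of 34 to 50634 bp. Since 37 hosts held 2 or more snoRNA genes, snoRNA genes are not independent of each other and counts are also given per host.

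Few snoRNA starts had a reproducible peak near them. The IDR peaks are the set that the authors kept by the irreproducible discovery rate, a measure of how well the ranks of peaks repeat between replicates, and they are the strongest 3106 entries of the pooled list described next. An IDR summit, the position of a peak's maximum, lay within 500 bp of the start in 13 of 269 snoRNA genes (4.83%, exact 95% Clopper-Pearson interval 2.6 to 8.12), against 11.9% of the 17895 other genes. By class this was 7 of 116 box C/D genes (6.03%, 2.46 to 12), 5 of 120 box H/ACA genes (4.17%, 1.37 to 9.46) and 1 of 33 unclassed genes, so the intervals of the classes overlapped. No scaRNA gene was among them (0 of 16, interval up to 20.6%). Such intervals cover counting error over genes only.

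Candidates stood at snoRNA starts in shares whose intervals include those of other genes. The authors' candidate lists hold 30000 entries each and include background. A candidate of the list made from both replicates together (pooled) had its summit within 500 bp of 125 snoRNA starts (46.5%, 40.4 to 52.6), against 44.1% of other genes. Replicate 2 alone had one at 129 (48%, against 43.4% of other genes) and replicate 3 at 119 (44.2%, against 45.7%). All 3 lists each had a summit within 500 bp of 79 starts (29.4%, 24 to 35.2), against 34% of other genes. The summits of the 3 lists were not required to lie at one site. The 112 snoRNA starts with a pooled candidate but no IDR peak had a median signal of 33.0 (range 20.9 to 85.7) on the authors' score, whose unit is not given. Since the IDR set is the top of the pooled list, down to 95.2, they lie below that value by construction. These 112 starts shared 69 candidates.

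The 13 snoRNA genes shared 11 IDR peaks, and for 10 of the 13 the peak also lay at the promoter of the host. In 11 of the 13 the summit lay 5′ of the snoRNA start. The signals below come in the order pooled, replicate 2, replicate 3, with the replicate value taken at the replicate summit nearest to the IDR summit. For all 13 that summit was found within 100 bp in each replicate and stood among the strongest 3106 entries of that replicate, as many as the IDR set holds. The pooled and IDR lists give a peak the same signal, and signals from different lists are on scales of their own.

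The 3 ncRNA hosts with a peak gave 6 of the 13. Uhg4 is a dedicated snoRNA host with 7 snoRNA genes, and its promoter peak had signals of 379.8, 174.8 and 206.4. The summit lay 177 bp 5′ of Psi28S-2949 and 490 bp 5′ of Or-aca5, both box H/ACA, and this was the strongest peak near any snoRNA start. Uhg5 holds 11 box C/D snoRNA genes, and its promoter peak, at 114.1, 62.9 and 55.9, lay 124 bp 5′ of Me18S-C1366 and 430 bp 5′ of Me28S-C3227a. A second peak, at 125.9, 56.9 and 70.7, lay 432 bp past the start of the last snoRNA gene of Uhg5, Or-CD4, and 3084 bp from the start of Uhg5, in no annotated gene. Uhg5 thus had an IDR peak near its first snoRNA genes and another beyond its end, and none near the 8 snoRNA genes between them. Uhg2 holds 4 box C/D snoRNA genes, and its promoter peak, at 118.7, 65.2 and 58.6, lay 143 bp 5′ of Me18S-A1576, whose sequence is shown above.

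Ribosomal protein hosts gave 5 of the 13, out of 76 snoRNA genes (6.58%, 2.17 to 14.7). No other coding host gave any (0 of 126 snoRNA genes, interval up to 2.89%), and the intervals overlap. These groups were not matched for the distance of the snoRNA gene from the host start. RpL28 had the strongest of the 5 peaks at ribosomal protein hosts, at 264.9, 135.7 and 138.3, with the summit 460 bp 5′ of Or-CD11a. RpS12 had 199.2, 89.0 and 112.0, with the summit 208 bp 5′ of Me28S-A774b. RpL17 had 188.5, 86.3 and 103.0, with the summit 493 bp 5′ of Psi28S-1232, at the edge of the window, so that the replicate 2 summit, 28 bp away, fell just outside it. RpS29 had 159.6, 94.9 and 65.8, with the summit 404 bp 5′ of Psi18S-1275, and RpL10Ab had 139.4, 70.0 and 67.4, with the summit 128 bp 5′ of Psi18S-920. In each of the 5 the summit lay nearer to the start of the host, at 5 to 70 bp, than to that of the snoRNA.

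The other 2 of the 13 had no host and no protein-coding start within 500 bp of the summit. Or-CD13 (chr2R:10082253-10082322) had signals of 154.9, 82.7 and 66.0, with the summit 488 bp past its start and inside egr, a tumour necrosis factor ligand gene on the opposite strand. The gene named snoRNA:185 (chr2R:19727098-19727152) had 133.4, 74.3 and 69.2, with the summit 33 bp 5′ of its start. Leaving out snoRNA genes, the nearest annotated start to that summit was that of a glutamate transfer RNA gene, tRNA:Glu-TTC-1-5, at 346 bp. Of the 13 snoRNA genes, snoRNA:185 had the summit nearest to its own start.

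The count followed the position within the host. Within 500 bp of a host start, 10 of 32 snoRNA genes (31.2%, 16.1 to 50) had an IDR summit near their own start, and beyond 500 bp 1 of 215 did (0.465%, 0.0118 to 2.56). The 1 is Or-CD4. As a yardstick, 1.29% of all positions in coding genes more than 500 bp from a coding start lay within 500 bp of an IDR summit. Among the 176 snoRNA genes in coding hosts that lay more than 500 bp from any coding start, 0 had an IDR peak (interval up to 2.07%).

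**Figure D1:**
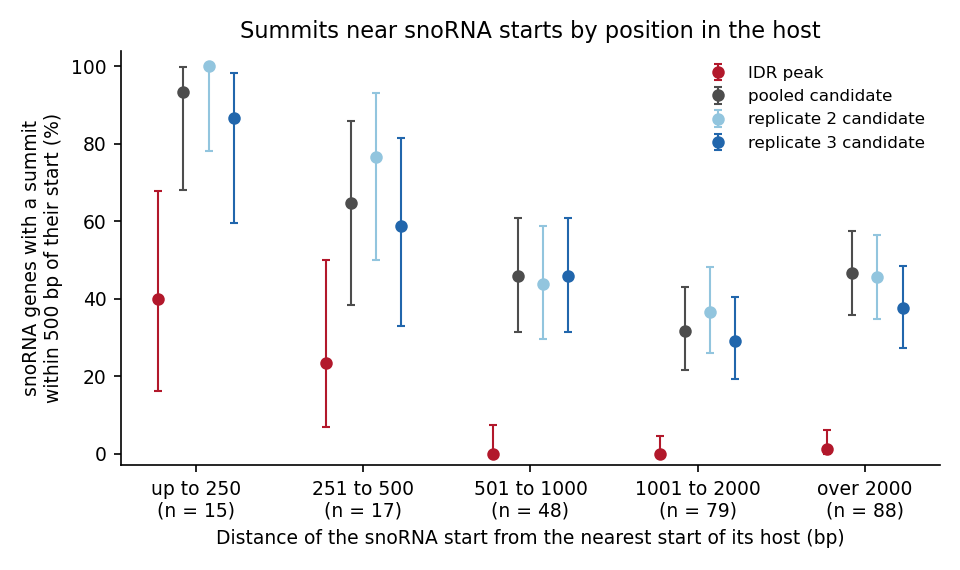
Share of snoRNA genes (%) with a summit within 500 bp of their start, by the distance of that start from the nearest transcript start of the host (bp), in the IDR set, the pooled list and each replicate list. Points are shares and bars are exact 95% intervals. IDR peaks stood at 6 of 15 snoRNA starts up to 250 bp from the host start, 4 of 17 at 251 to 500 bp and 0 of 48 at 501 to 1000 bp.

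Pooled candidates were also most frequent close to the host start, but remained common far from it. They stood at 14 of 15 snoRNA starts up to 250 bp from the host start, 11 of 17 at 251 to 500 bp, 22 of 48 at 501 to 1000 bp, 25 of 79 at 1001 to 2000 bp and 41 of 88 beyond that. The counts in the same 5 bins were 15, 13, 21, 29 and 40 in replicate 2 and 13, 10, 22, 23 and 33 in replicate 3. At the 176 snoRNA genes in coding hosts far from any coding start, 75 (42.6%, 35.2 to 50.3) had a pooled candidate, against 17.4% of the positions in coding genes named above. Those 75 shared 44 candidates in 32 hosts. The bodies of these hosts as a whole also stood above that share: in coding hosts of up to 10 kb, 62 of 136 such snoRNA genes (45.6%, 37 to 54.3) had a pooled candidate, against 35.3% of such positions in coding hosts of that size. Because neighbouring snoRNA genes share candidates, these intervals are too narrow.

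Among snoRNA genes without an IDR peak, the highest pooled signals lay at host promoters, in host bodies and at snoRNA genes without a host. Or-aca2 in RpS6 had 85.7 in the pooled list, with 35.0 in replicate 2 and 70.6 in replicate 3. Psi18S-525a in Arpc2 had 85.4, 54.8 and 30.0 at a candidate in the body of the host, and Psi18S-1086 in Sf3b3 had 83.5, 41.8 and 40.8 at the host promoter. At Psi18S-525a the replicate 3 summit lay 137 bp from the pooled one. The next were Me28S-G3081a in Uhg1 (81.3), Me18S-C1096 in RpL3 (69.7, a weaker summit beside the IDR peak of RpL3), CG43051-a (67.3) and Me18S-G1358c in RpL15 (64.0). Me28S-U2134a and Me28S-U2134b in RpL13A shared a candidate of 55.2 in the body of the host. Psi28S-3342 and Psi28S-2622, which have no host, were also among them.

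Host promoters had IDR peaks in a larger share than the snoRNA starts. An IDR summit lay within 500 bp of a transcript start in 44 of 90 hosts (48.9%, 38.2 to 59.7). Among coding hosts it was 41 of 83 (49.4%, 38.2 to 60.6), against 15.8% of all 13945 coding genes, and among ncRNA hosts 3 of 7 (42.9%, 9.9 to 81.6), against 4.72% of all 3261 ncRNA genes. A pooled candidate stood at the promoter of 70 of 83 coding hosts (84.3%, 74.7 to 91.4), against 50.3% of coding genes. All 3 lists each had a promoter candidate, not always at one site, at 68 (81.9%, 72 to 89.5), against 41.2%. Counted by snoRNA gene, 122 of 269 (45.4%, 39.3 to 51.5) had a host with an IDR peak at its promoter.

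**Figure D2:**
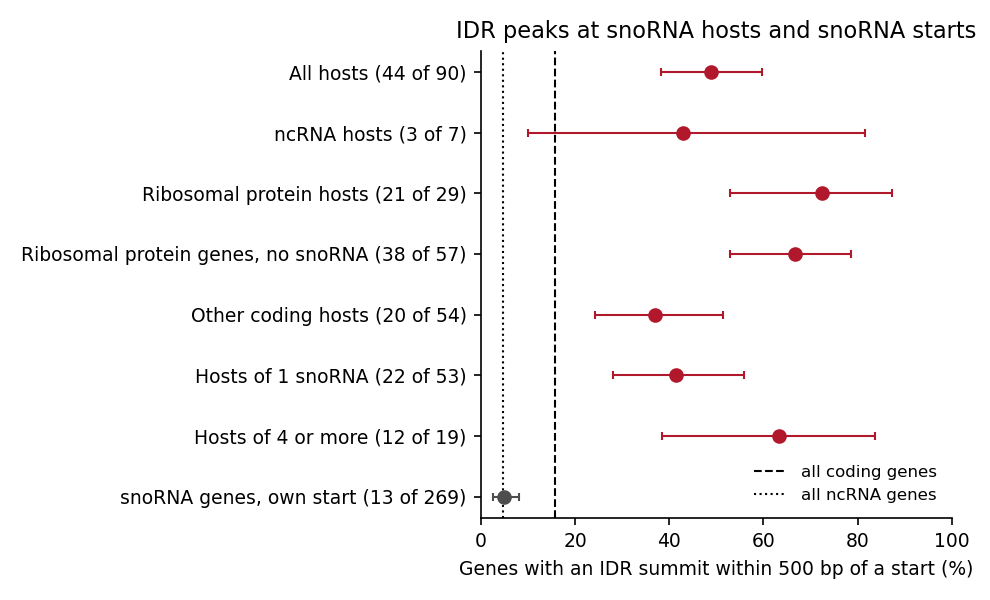
Share of genes (%) with an IDR summit within 500 bp of a start, for groups of snoRNA hosts, for ribosomal protein genes that hold no snoRNA, and for the snoRNA genes at their own start. Points are shares, bars are exact 95% intervals, and the vertical lines are the shares of all coding genes (15.8%) and all ncRNA genes (4.72%). All hosts stand at 48.9% and the snoRNA starts at 4.83%.

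Ribosomal protein genes carried much of the host count. Of 29 ribosomal protein hosts, 21 had an IDR promoter peak (72.4%, 52.8 to 87.3), and of the 57 ribosomal protein genes that hold no snoRNA, 38 did (66.7%, 52.9 to 78.6). The intervals overlap, so ribosomal protein genes with and without a snoRNA could not be told apart by this count. Of the 54 other coding hosts, 20 had a peak (37%, 24.3 to 51.3), against 15.5% of coding genes other than those for ribosomal proteins. Per snoRNA gene, 64 of 76 in ribosomal protein hosts, 36 of 126 in other coding hosts and 22 of 45 in ncRNA hosts had a host with a peak.

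Hosts were also set beside coding genes of like structure. Coding hosts with 1 annotated start had a peak in 16 of 39 (41%, 25.6 to 57.9), against 11.8% of coding genes without a snoRNA and with 1 start. With 2 or more starts it was 25 of 44 (56.8%, 41 to 71.7) against 26.1%. Hosts that span up to 10 kb had 33 of 66 (50%, 37.4 to 62.6) against 14.6%, and longer hosts 8 of 17 (47.1%, 23 to 72.2) against 21.7%. Hosts of 4 or more snoRNA genes had 12 of 19 (63.2%, 38.4 to 83.7) and hosts of 1 had 22 of 53 (41.5%, 28.1 to 55.9), with overlapping intervals. The 29 ribosomal protein hosts, 21 of them with a peak, all span less than 10 kb and so fall among the 66. The groups by number of starts and of snoRNA genes hold ribosomal protein hosts too. None of these shares was counted without them.

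The strongest host promoter was that of RpL30, a protein of the large ribosomal subunit, at 649.1 in the pooled list, 269.8 in replicate 2 and 378.6 in replicate 3. Its ranks of 64, 113 and 40 put it near the top of every list. Stt3A, a subunit of the oligosaccharyltransferase, had 508.4, 257.0 and 252.2, CG1142 had 505.4, 231.0 and 281.7, and RpL23A had 497.1, 246.5 and 258.9. All 3 ranked between 89 and 163 in the replicate lists. Uhg4 came next, then RpS20 (310.1), RpL13A (304.5), the small GTPase gene Arf1 (280.3), CG12316 (280.1) and Msp300 (267.4), which encodes a nuclear envelope protein of the nesprin family. Over the 44 host promoter peaks the median signal was 191.2, and over the 21 at ribosomal protein hosts it was 216.8, beside 154.8 for IDR promoter peaks of all coding genes and 146.0 for all 3106 IDR peaks.

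Both replicates held the host peaks. A replicate summit stood within 100 bp of all 44 IDR summits in each replicate. The signal there was 40.3 to 269.8 in replicate 2 (median 98.1) and 26.7 to 378.6 in replicate 3 (median 95.0). Of the 44, 43 were among the strongest 3106 entries of replicate 2, 40 of replicate 3, and 39 of both. Since the IDR set was derived from these lists, this describes the peaks and is not independent of them. The lowest in replicate 3 was Tudor-SN, a nuclease gene, with 62.7 in replicate 2 and 26.7 in replicate 3, although a stronger replicate 3 entry, 54.3, lay 90 bp past its start. The lowest in replicate 2 was kis, a chromatin remodeller gene, with 40.3 and 81.0. A stronger promoter entry than the nearest one also stood at RpS7 (97.9) and drn (82.8) in replicate 2 and at skd (45.9) in replicate 3. Taking the strongest promoter entry of each replicate in place of the nearest, 42 of 44 were among the strongest 3106 entries of replicate 2, 41 of replicate 3 and 39 of both.

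**Figure D3:**
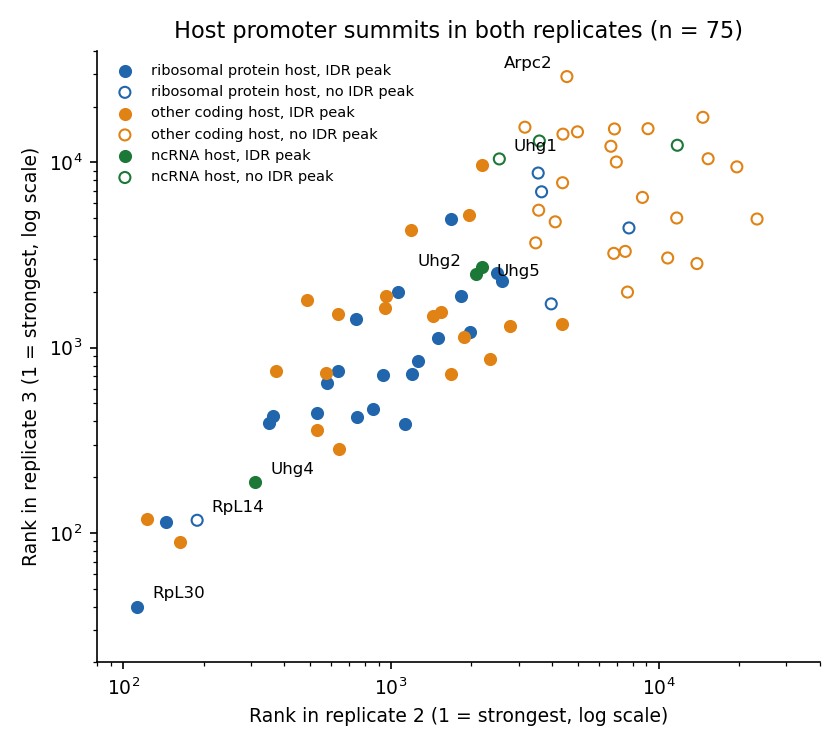
Rank of the host promoter summit in replicate 2 (x axis) and replicate 3 (y axis), both on log scales with 1 as the strongest, for the 75 of 90 hosts with a summit in both. Filled points have an IDR peak, taken at the replicate summit nearest to it, and open points have none. Filled points fill the lower left, RpL30 is lowest, and RpL14 is an open point among the strongest.

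RpL14 stood apart. This ribosomal protein gene holds 2 box C/D snoRNA genes, and its promoter summit had 214.0 in replicate 2 (rank 189) and 256.5 in replicate 3 (rank 117). No entry of the pooled list or the IDR set lay there: the nearest pooled summit was 3191 bp away. It was the only one of the 46 hosts without an IDR promoter peak that was among the strongest 3106 entries of both replicates. Of the 624 coding genes whose promoter was among the first 1000 entries of both replicates, 13 (2.08%) had no pooled candidate, so RpL14 was 1 of several. The step of the authors' processing at which such entries dropped out is not given in the sources used here.

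Hosts with many snoRNA genes were split. For those without an IDR peak, the values are the strongest promoter entry of each list. Arpc2, a subunit gene of the actin-nucleating Arp2/3 complex, holds 17 box H/ACA snoRNA genes, the most of any host, and had no IDR peak: its promoter candidate had 55.2 in the pooled list, 39.4 in replicate 2 and 12.7 in replicate 3. Uhg1 holds 16 and had 81.3, 56.9 and 25.4, without an IDR peak. The chromatin remodeller gene dom holds 15 and had 42.9, 15.1 and 39.8, also without one, the replicate 2 summit lying 195 bp from the pooled one. The replicate ranks of these 3 lay far apart, at 4545 and 29017 for Arpc2, 2542 and 10430 for Uhg1, and 23326 and 4943 for dom. RpS5a holds 14 box H/ACA snoRNA genes and had an IDR peak of 193.9, with 115.7 and 77.9 in the replicates. None of its 14 snoRNA genes had an IDR peak near its own start.

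Of the hosts of 7 to 9 snoRNA genes, kra, a regulator of translation, had an IDR peak of 136.9 (53.7 in replicate 2, 81.9 in replicate 3), although its summit lay nearer to the start of SecS. RpS7 had one of 145.3 (56.0 and 61.3 at the nearest replicate summits) and Uhg4 the one given above. Sf3b3, a splicing factor gene, had a candidate of 83.5 (41.8 and 40.8) and Hrb98DE, an hnRNP gene, one of 40.2 (30.9 and 23.1, at summits 244 and 565 bp from the pooled one), both without an IDR peak. Nop60B, the host that encodes the pseudouridine synthase itself, holds 7 snoRNA genes and had no promoter entry in any of the lists. Of the 11 hosts with 7 or more snoRNA genes, RpS5a, Uhg5, kra, RpS7 and Uhg4 thus had an IDR peak.

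The host peaks sat at or just upstream of the annotated starts. The median offset was -65.0 bp (minus is upstream), with 35 of 44 upstream and 34 of 44 within 150 bp of the start. At ribosomal protein hosts 20 of 21 lay within 150 bp (median offset -43.0 bp), and at other coding hosts 11 of 20 did (median offset -130.0 bp). The host start was the nearest annotated start to the summit in 35 of 44. Another annotated start lay within 500 bp of the summit in 22 of the 44, and the host was the sole gene with a start in that window at the other 22. Uhg2, with Bka at 237 bp, and Uhg5, with CG12863 at 338 bp, were among the shared peaks although their own start was nearer. In 9 a neighbour was nearer, among them bves at Stt3A, CG11109 at Arf1, CG3085 at Fib, Vps60 at anchor, CG14767 at gcl, CalpA at hts, Pdss2 at skd, and SecS at kra. Which gene a peak with several starts in its window belongs to cannot be told apart.

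**Figure D4:**
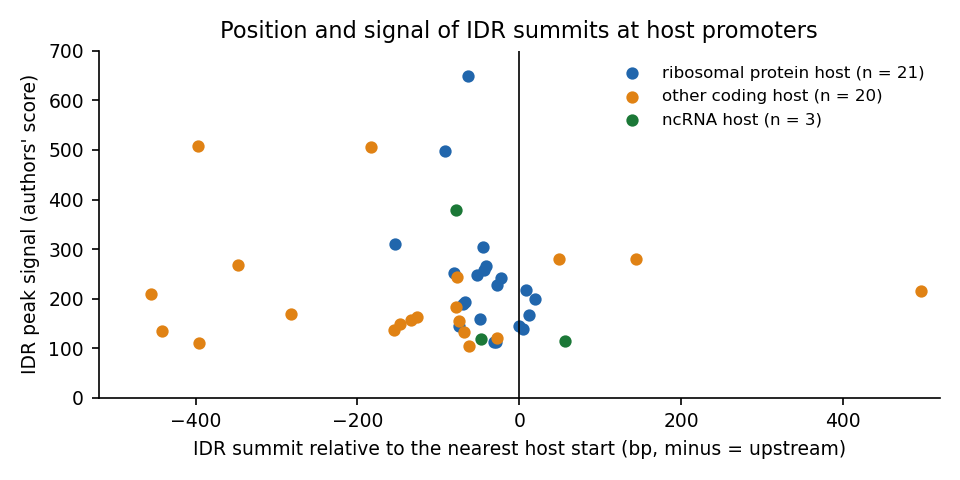
Signal of the IDR peak (the authors' score) against the position of its summit relative to the nearest host start (bp, minus is upstream), for the 44 hosts with an IDR promoter peak. Points of ribosomal protein hosts cluster at the start, with 20 of 21 within 150 bp, and those of other coding hosts reach from -455 to 497 bp.

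The sequence under the host summits was read next. The following 101 bp windows, centred on the IDR summit and written in the sense of the host, are those of the 6 hosts whose peak also lay near a snoRNA start and whose sequence can be shown, with the 4 hosts of highest signal, RpL30, Stt3A, CG1142 and RpL23A. Coordinates are dm6: Uhg2 (chr2L:9895000-9895100, minus strand), RpL28 (chr3L:3222951-3223051, minus strand), RpL10Ab (chr3L:11822806-11822906, plus strand), RpL23A (chr3L:1668696-1668796, minus strand), RpL17 (chrX:6744258-6744358, minus strand), RpS12 (chr3L:13023322-13023422, plus strand), RpS29 (chr3R:9777944-9778044, plus strand), RpL30 (chr2L:19009319-19009419, minus strand), Stt3A (chrX:21054284-21054384, minus strand) and CG1142 (chr3R:7473914-7474014, minus strand). Capitals mark any of 5 words of 8 bases, AACTATCG, ACTATCGA, CAACACTG, ATCGATAG and TATCGATA, on either strand.
Uhg2: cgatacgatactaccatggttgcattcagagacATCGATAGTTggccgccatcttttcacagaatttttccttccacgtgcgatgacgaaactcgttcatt
RpL28: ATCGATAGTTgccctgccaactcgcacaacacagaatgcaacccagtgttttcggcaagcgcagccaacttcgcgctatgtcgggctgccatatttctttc
RpL10Ab: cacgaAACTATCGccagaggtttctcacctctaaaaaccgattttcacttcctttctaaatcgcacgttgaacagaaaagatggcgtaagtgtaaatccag
RpL23A: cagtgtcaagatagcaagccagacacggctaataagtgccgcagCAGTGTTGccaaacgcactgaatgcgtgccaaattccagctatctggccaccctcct
RpL17: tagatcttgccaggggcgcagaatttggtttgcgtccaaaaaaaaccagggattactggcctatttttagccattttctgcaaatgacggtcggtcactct
RpS12: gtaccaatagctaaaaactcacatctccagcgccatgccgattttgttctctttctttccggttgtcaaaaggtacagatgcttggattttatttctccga
RpS29: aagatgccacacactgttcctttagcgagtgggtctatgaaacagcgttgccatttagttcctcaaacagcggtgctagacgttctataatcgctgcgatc
RpL30: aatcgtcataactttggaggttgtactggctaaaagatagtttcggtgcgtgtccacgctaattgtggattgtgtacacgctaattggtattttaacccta
Stt3A: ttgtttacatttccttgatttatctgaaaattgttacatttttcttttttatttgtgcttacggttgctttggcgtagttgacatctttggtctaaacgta
CG1142: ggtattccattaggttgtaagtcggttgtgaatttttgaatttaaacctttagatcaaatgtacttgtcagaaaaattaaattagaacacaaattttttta

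The 5 words were chosen after seeing the data. They had the largest excess in 3059 IDR windows over 13096 weak pooled candidates, among words found in at least 50 of the IDR windows. These 3059 leave out the IDR peaks scored at host promoters and near snoRNA starts. Other peaks in or near hosts stayed in, among them those inside 9 of the 90 hosts away from the promoter. The weak candidates overlapped no IDR peak and had signals below the median of such candidates. All but CAACACTG overlap each other in letters, around TATCG, and TATCGATA is the DNA replication-related element (DRE). The host windows had no part in the choice. At least 1 of the words stood in 8 of 44 host windows (18.2%, 8.19 to 32.7), beside 1.41% of the weak candidate windows and 7.22% of the other IDR windows. The words were chosen for a high share in the latter and a low share in the former, so both of those shares are set by the choice and neither is an unbiased background for the hosts. The 8 were RpL10Ab, RpL11, RpL23A, RpL28, RpS3A, RpS5a, Uhg2 and hts. Among the windows shown, Uhg2, RpL28, RpL10Ab and RpL23A held a word and the other 6 did not. Mean GC content was 42.6% ± 9.44 (SD, 44 windows) at host summits, 35.8% ± 8.96 at other IDR summits and 39.7% ± 9.9 at weak candidates. Among host summits it was 47.1% ± 9.07 at the 21 ribosomal protein hosts and 38.4% ± 7.84 at the 23 others. The part of base composition in these shares was not tested.

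Fixed motifs were also counted in the host promoters, from 250 bp before to 50 bp after the annotated gene start, on both strands, beside the promoters of all 17206 coding and ncRNA genes. TATCGATA (DRE) stood in 18 of 90 host promoters (20%, 12.3 to 29.8), against 7.84% of all promoters. CGATA, the core of the BEAF-32 site and part of the DRE, stood in 63.3% against 44.5%, and GGTCACAC, the core of the M1BP site, in 12.2% (6.26 to 20.8) against 6.39%. CTTT with its C within 5 bases of the start, the letters of the TCT initiator known from ribosomal protein genes, stood in 20 of 90 (22.2%, 14.1 to 32.2) against 5.79%, searched on the sense strand only. The E-box CACGTG stood in 10% against 4.21%, the E-box CAGCTG in 8.89% (3.92 to 16.8) against 16.6%, and GAGAG in 28.9% against 29.7%. Ribosomal protein genes without a snoRNA held the DRE in 29.8%, CGATA in 73.7% and GGTCACAC in 15.8%, each above the share of all hosts. In the 61 hosts other than ribosomal protein genes the DRE stood in 16.4% (8.15 to 28.1), CGATA in 59% (45.7 to 71.4), GGTCACAC in 9.84% (3.7 to 20.2) and CTTT in 14.8% (6.98 to 26.2). The interval for GGTCACAC includes the share of all promoters, and those for the DRE, CGATA and CTTT lie above it.

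The motif shares of hosts with and without a peak had overlapping intervals. The DRE stood in 8 of 44 promoters with an IDR peak (18.2%, 8.19 to 32.7) and in 10 of 46 without (21.7%, 10.9 to 36.4), and CGATA in 63.6% and 63%. The CTTT letters stood in 27.3% (15 to 42.8) and 17.4% (7.82 to 31.4), with overlapping intervals. They were found in 11 of 29 ribosomal protein hosts (37.9%) and in 19 of 57 ribosomal protein genes without a snoRNA (33.3%). None of the 7 ncRNA hosts held the DRE, and 3 of them held CACGTG. A match is a description of the letters in the window and not of a factor at work there.

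Among the 22 snoRNA genes without a host, 12 had a pooled candidate within 500 bp (54.5%, 32.2 to 75.6), against 44.1% of other genes, which lies in that interval. In replicate 2 it was 11 (50%, 28.2 to 71.8) against 43.4% of other genes, and in replicate 3 it was 18 (81.8%, 59.7 to 94.8) against 45.7%. Neighbouring genes among the 22 share candidates, so these intervals are too narrow. Apart from Or-CD13 and snoRNA:185, these were weak. Psi28S-3342 had 61.2 in the pooled list, 27.0 in replicate 2 and 38.1 in replicate 3, with the pooled summit 8 bp 5′ of its start and the replicate 2 summit 284 bp away from it, and Psi28S-2622 had 59.5, 16.0 and 41.0. Psi28S-1153 and the pair of unclassed snoRNA genes next to it shared a candidate of 42.7 at the promoter of CG13334. The remaining values were 43.3 at Psi18S-301, 40.6 at Or-aca4, 38.3 at U3:9B, 34.7 at U3:54Ab and 26.4 at Me18S-A1806. U3, which acts in the cleavage of the ribosomal RNA precursor and not in its modification, thus had a pooled candidate at 2 of its annotated copies. At U3:9B the replicates had 13.2, 27 bp from the pooled summit, and 26.4, 119 bp from it. At U3:54Ab the replicate 3 entry, at 26.0, lay 171 bp from the pooled summit and the replicate 2 entry, at 20.6, lay 536 bp from it on the other side of the start. The copy U3:54Aa had an entry in replicate 3 alone, at 12.9.

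The genes for proteins that assemble, mature or release snoRNAs were scored for comparison. Of 20 listed, 18 were matched in the annotation, and Bcd1 and Mpp10 were not. An IDR promoter peak stood at 6 of 18 (33.3%, 13.3 to 59), an interval that includes the 15.8% of coding genes. Fib, the methyltransferase of box C/D particles and itself a snoRNA host, had 154.4, with 68.8 in replicate 2 and 88.3 in replicate 3, but CG3085 starts nearer to that summit. rept and pont, the paired ATPases of particle assembly, had 152.2 (87.1 and 62.8) and 100.4 (69.8 and 28.9). Nopp140, a nucleolar chaperone of these particles, had 138.6 (68.7 and 69.4), NHP2, a core protein of box H/ACA particles, 128.9 (57.3, at a summit 134 bp away, and 72.1), and Rrp6, a nuclease of the exosome, 120.9 (55.3 and 65.1). pont was the weakest of the 6, with a replicate 3 rank of 8521. The other core proteins had weaker entries: Nop56 75.1, nop5 30.5, hoip 26.9 and Nop10 81.1. Gar1 had a candidate in replicate 2 only, at 17.7, and Nop60B had none. Both classes of particle were therefore represented among genes with a peak and among genes without one.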

How the data were processed

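ChIP-seq peak lists in narrowPeak format were deposited for 2 replicates; the dm6 lists were used. Each replicate list and the pooled list hold 30000 candidates, derived from the alignments and a shared control, and the IDR set of 3106 peaks was derived from these, per the text that accompanies the deposit. The peak signal is the authors' score, used only to rank and describe peaks. The deposited −log10 q-value column was not used, since it is constant in the IDR set. The IDR set is the strongest 3106 entries of the pooled list. No source used here gives the aligner, the caller, the IDR threshold or read numbers, so depth is unknown. No mock or untagged control was analysed here. The replicate labels name biological replicates and the spread between them may include technical variation.

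From these, summits (start plus the offset in column 10) were compared with Ensembl BDGP6 gene and transcript starts within 500 bp. The gene positions and the deposited peaks lie within the lengths of the Release 6 arms. A host is the same-strand gene that contains the whole snoRNA gene, the shortest coding one where several do. Shares carry exact Clopper-Pearson 95% intervals, with no test over samples. Sequence was read from the Release 6 genome with pyfaidx 0.9.0.4. Python 3.11.15, pandas 2.3.3, numpy 2.4.6 and scipy 1.17.1 were used. Counting was tested on simulated positions. Named genes are every snoRNA gene with an IDR summit near its start and its host, the 10 strongest snoRNA genes without one, the 10 hosts with most snoRNA genes and the 10 with the highest signal (ties kept), snoRNA particle genes with an IDR promoter peak, and snoRNA genes without a host that have a pooled candidate. RpL14, pAbp, Tudor-SN, kis, Nop56, nop5, hoip, Nop10, Gar1 and the neighbours of host peaks were named after their values were seen. Members and lists were chosen with earlier results of these data known. A neighbour pair at a host peak is not reported here.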

Additional observations from a re-analysis of the deposited data

How the results depend on the processing

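The host counts moved less than the counts at snoRNA starts. Where a replicate was left out, the strongest entries of the other replicate, as many as the IDR set holds, replaced the IDR set. With these, 14 to 17 snoRNA genes had an entry near the start, in place of 13 with an IDR peak. Hosts numbered 44 to 48 in place of 44, and snoRNA genes with such a host 127 to 136 in place of 122. Candidates stood at 119 starts in replicate 3 alone and at 129 in replicate 2 alone, as given above, in place of 125. The counts without a replicate are therefore those of the other replicate list and not of IDR peaks. The count in all 3 lists, 79, became 119 to 129, since 1 list was then required. With a window of 250 bp, snoRNA starts with an IDR summit numbered 6, with a pooled candidate 71 and in all 3 lists 33. With 1000 bp they numbered 44, 188 and 139. With entries at or above the median signal of each list they numbered 7, 68 and 37, and 81 snoRNA genes had a host with a peak. Hosts with an IDR promoter peak numbered 37 at 250 bp, 47 at 1000 bp and 31 with those stronger entries, in place of 44. Counting the peak interval in place of the summit gave 20 snoRNA starts with an IDR peak. Of the 234 snoRNA genes over 500 bp from any coding or host start, 3 had an IDR summit near their own start. Shares of other genes were counted only at 500 bp from summits of the full lists. Whether snoRNA starts differ from other genes under these settings was therefore not tested. Alternatives chosen after seeing the data left hosts at 35 where the host had to be the nearest start, and at 40 where the strongest entries of both replicates replaced the IDR set. Without ribosomal protein genes, 23 of 61 hosts and 58 of 193 snoRNA genes remained. Of 11 alternatives for hosts, 10 stayed within 1.5 times the main count.

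pAbp shows a limit of the window: its summit lies 497 bp past a host start, and the replicate summits, 4 and 12 bp away with signals of 124.8 and 75.1, fall outside. No paired analysis was possible because the samples form 1 group. Depth is unknown, so an absent entry does not show absent binding.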
